A study of Sus scrofa with 8 samples.

Results

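RSAD2, OASL, IFIT1, IFI44 and HERC5 are 5 antiviral genes that interferon induces, and they were followed through a month of primary culture of pig oviductal epithelial cells. They are 5 of the 10901 genes that could be named on the array, each with 1 probe set, and were found by the symbol in the platform annotation. They had been picked from these same arrays for low values at 7 days and a partial return at 15 and 30 days, so their values are given as a description with no test. The low values at 7 days were seen in the 5 genes, and the partial return in RSAD2, IFIT1 and IFI44. Because the picking used these arrays, they cannot serve as a check of that pattern. OASL and HERC5 did not return: OASL lay flat from 7 to 30 days and HERC5 ended lower at 30 days than at 7.

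Interferons are secreted proteins that cells release after sensing viral nucleic acid. Type I and type III interferons act through receptors, the kinases JAK1 and TYK2, and a complex that includes STAT2 and IRF9 and binds the promoters of interferon-stimulated genes. Epithelia that line mucosal tracts, the oviduct among them, use this pathway as a barrier defence, and some of its target genes can also be switched on by IRF3 or related factors without interferon.

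The cells came from the oviducts of crossbred landrace gilts (n = 45) about 9 months old, which had shown regular estrous cycles, and were pooled. The epithelium was cut away, digested with collagenase I and then trypsin, and cultured in DMEM with 10% fetal bovine serum and antibiotics. RNA was taken at 24h, 7 days, 15 days and 30 days of culture, with 2 arrays per time called biological replicates and no interferon-treated arm. Each array received biotin-labelled product made by amplifying 100 ng of total RNA from a pool, on an Affymetrix whole-transcript platform. All 4 groups share the animals' breed and age, the medium and the serum, and differ in culture time. Whether the replicates came from separate pools or cultures is not given, so p-values measure only the spread between these arrays.

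Values are log2 probe set intensities, in which a difference of 1 is a 2-fold difference, and levels of different probe sets are not comparable with each other. The 8 arrays were closely scaled, with medians of 4.69 to 4.77, and no pair held identical values. Calls on other genes used limma over the 10901 genes at a Benjamini-Hochberg adjusted p under 0.05. Between 24h and 7 days 15.4% of genes were called lower and 18.3% higher. From 7 to 15 days 6.72% were called lower and 6.58% higher, and from 7 to 30 days 14.1% lower and 11.8% higher. At 30 days against 24h 21.1% were called lower and 20.2% higher. In a bulk culture, fewer cells of a type and less RNA per cell cannot be told apart. At 24h EPCAM, an epithelial adhesion protein, read 11.22 and 11.24. The keratins KRT8 and KRT18 read 10.89 and 11.22, and 9.01 and 9.23. The lowest of 10 measured epithelial markers on each 24h array read 4.83 and 5.68. Whether these levels bear out the labelled cell type was not tested. The epithelial markers parted later: at 30 days EPCAM read 3.23 and 3.38 and KRT18 7.70 and 7.17, while KRT8 read 11.45 and 11.23.

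RSAD2 encodes viperin, a radical SAM enzyme that makes a chain-terminating ribonucleotide. It read 9.70 and 9.31 at 24h, 4.87 and 4.48 at 7 days, 6.24 and 6.02 at 15 days, and 7.03 and 6.60 at 30 days. The 4 times did not overlap: 24h was highest, 7 days lowest, and 30 days lay above 15 days. The difference from 24h to 7 days was -4.83 ± 0.20 (SE), a 28.4-fold lower level. RSAD2 was 1.45 ± 0.20 (SE) higher at 15 days than at 7 days and 2.14 ± 0.20 (SE) higher at 30 days. By 30 days it had regained 44.2% of the log2 distance it lost, and was still 6.46-fold under its 24h level.

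IFIT1 encodes a tetratricopeptide repeat protein that binds viral RNA lacking the host cap methylation and blocks its translation. It read 9.98 and 9.66 at 24h, 6.51 and 5.99 at 7 days, 8.06 and 8.09 at 15 days, and 9.12 and 8.98 at 30 days. Again no 2 times overlapped, and the order of the times was the one seen for RSAD2. The first-week difference was -3.57 ± 0.18 (SE), an 11.9-fold lower level. IFIT1 stood 1.82 ± 0.18 (SE) above its 7-day level at 15 days and 2.80 ± 0.18 (SE) above it at 30 days. The regained share was 51.0% at 15 days and 78.4% at 30 days, which left the 30-day level 1.70-fold below 24h.

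IFI44 encodes a GTPase-like protein of the cytoplasm that restrains several viruses, with a mechanism that is not settled. Its levels were 8.87 and 8.35 at 24h, 5.50 and 4.79 at 7 days, 7.45 and 7.22 at 15 days, and 7.92 and 7.85 at 30 days. The groups were again separate in the same order, with the lowest array being the second one at 7 days. The 7-day mean lay 3.46 ± 0.23 (SE) below 24h, which is 11.0-fold. By 15 days IFI44 stood 2.19 ± 0.23 (SE) above 7 days and had regained 63.2% of the lost distance, more than the 51.0% of IFIT1 and the 30.05% of RSAD2. By 30 days it had regained 79.0%, close to the 78.4% of IFIT1, and sat 0.73 ± 0.23 (SE) below 24h.

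OASL belongs to the oligoadenylate synthetase family, lacks the family's enzyme activity in humans and enhances RNA sensing by RIG-I. It read 8.63 and 7.75 at 24h, 3.87 and 4.02 at 7 days, 3.94 and 3.86 at 15 days, and 3.99 and 3.70 at 30 days. The 24h arrays stood far above the other 6, which overlapped across the 3 later times. The first-week difference was -4.25 ± 0.24 (SE), or 19.0-fold between the readings. From 7 days OASL differed by -0.04 ± 0.24 (SE) at 15 days and by -0.10 ± 0.24 (SE) at 30 days, both smaller than the SE. The later readings lie below the array medians of 4.69 to 4.77 and above the 25th percentiles of 3.37 to 3.49. The table carries no detection calls, so whether those readings are above background is not known, the 19.0-fold may be a lower bound, and its rank against the drop of RSAD2 is not settled. The 2 arrays at 24h were 0.88 apart, the widest replicate gap of any of the 5 genes.

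HERC5 encodes the ligase that attaches the ubiquitin-like protein ISG15 to newly made proteins, including viral ones. It read 9.30 and 9.06 at 24h, 7.11 and 6.83 at 7 days, 6.89 and 6.81 at 15 days, and 6.74 and 6.41 at 30 days. The 24h arrays were highest, the 15-day arrays overlapped the 7-day range, and the 30-day arrays lay below both. The first-week difference was -2.21 ± 0.15 (SE), or 4.63-fold, the narrowest of the 5 genes. HERC5 moved by -0.12 ± 0.15 (SE) from 7 to 15 days and by -0.40 ± 0.15 (SE) from 7 to 30 days. At 30 days it was 6.09-fold below 24h, so the distance widened where that of RSAD2, IFIT1 and IFI44 narrowed.

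**Figure D1:**
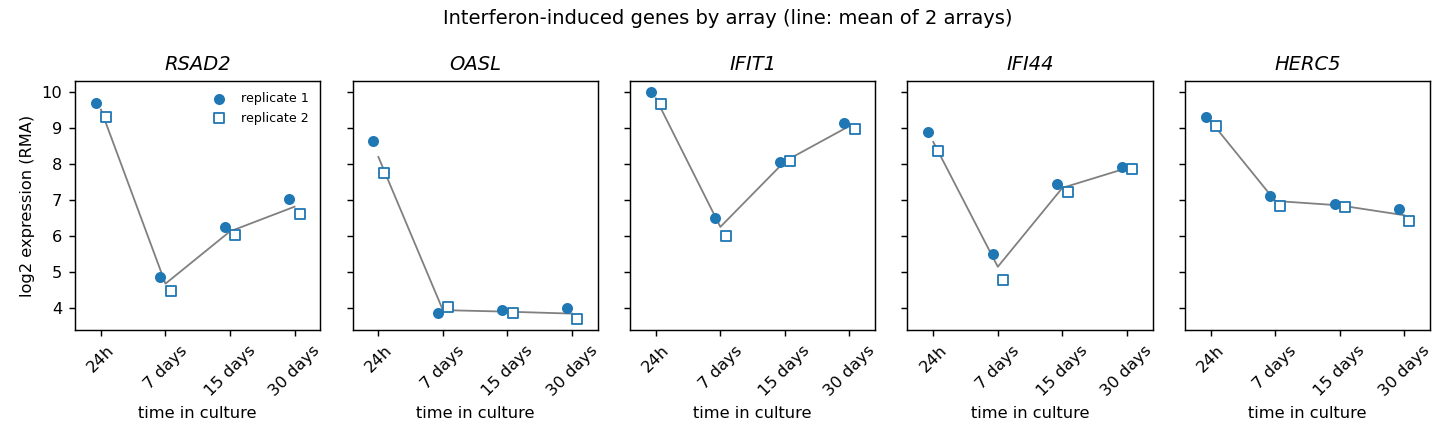
Log2 RMA intensity of the 5 genes on each of the 8 arrays, by time in culture, with a point per array and lines through the means of 2 arrays. All 5 genes drop at 7 days. RSAD2, IFIT1 and IFI44 then climb again, IFIT1 reaching 9.12 and 8.98 at 30 days. From 7 days on OASL stays between 3.70 and 4.02, and HERC5 drifts to 6.74 and 6.41 at 30 days.

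Side by side, the 5 differences from 24h to 7 days ran from -4.83 for RSAD2 to -2.21 for HERC5, with a median of -3.57 against -0.0064 over all genes. All 5 genes had groups that did not overlap, beside the 15.4% of genes called lower. Between 7 and 15 days the groups did not overlap for 3 of the 5, RSAD2, IFIT1 and IFI44, which were higher, beside 6.58% of genes called higher. The median was 1.45, with OASL and HERC5 near 0. Between 7 and 30 days the same 3 genes were higher and HERC5 was lower without overlap, beside 11.8% called higher and 14.1% called lower. Lack of overlap between pairs of arrays is a looser criterion than a call, and the shares are of calls: HERC5 was not among the genes called lower from 7 to 30 days, so 0 of the 5 stand beside the 14.1%. At 30 days the 5 genes were below 24h without overlap, beside 21.1% called lower, with differences from -4.35 for OASL to -0.73 for IFI44. These comparisons share the 7-day or the 24h arrays and were used to pick the genes, so nothing is read from the counts.

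The climb was spread over both intervals. From 15 to 30 days IFIT1 added 0.98, RSAD2 0.68 and IFI44 0.55, while OASL changed by -0.05 and HERC5 by -0.27. For RSAD2, IFIT1 and IFI44 the larger part of the return had been made by 15 days. The first replicate read higher than the second for 5 of the 5 genes at 24h and at 30 days, and for 4 of them at 7 and at 15 days. The largest gap between replicates was 0.88 at 24h and 0.71 at 7 days, small next to the first-week differences of -4.83 to -2.21 but not next to those between 7 and 15 days. IFI44, with 5.50 and 4.79 at 7 days, was the gene whose return depended most on a single array: it was 1.83 to 2.54 from 7 to 15 days when each array was left out in turn.

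**Figure D2:**
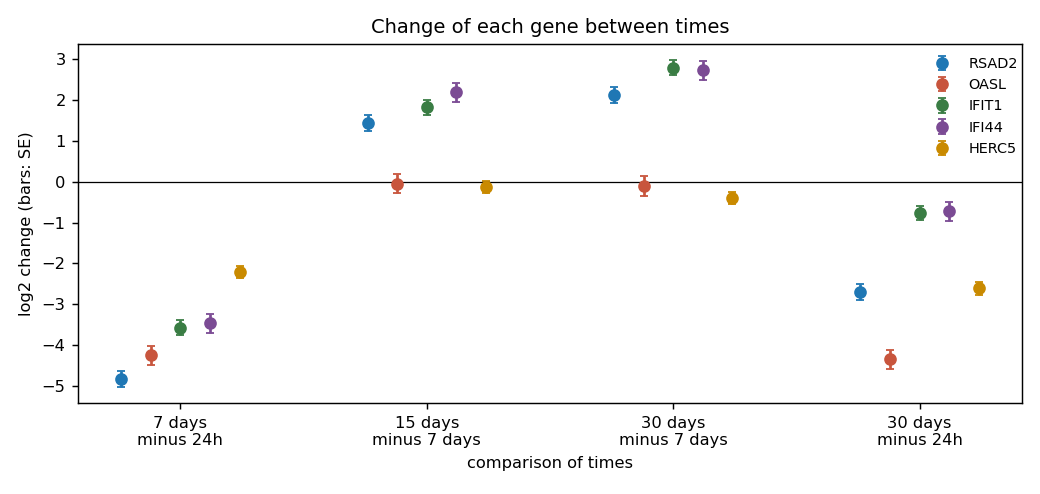
Log2 change of each gene between times with its SE from the fit over 8 arrays (n = 2 per time). All 5 genes are negative at 7 days against 24h, from -4.83 to -2.21, and RSAD2, IFIT1 and IFI44 are positive from 7 days onward while OASL and HERC5 lie at or below 0.

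The 5 profiles fell into a pair of shapes. Over the 8 arrays Pearson's r was 0.988 between IFIT1 and IFI44 and 0.987 between OASL and HERC5. Across those pairs it was lower, at 0.516 between IFI44 and HERC5 and 0.593 between OASL and IFI44. RSAD2 lay between the shapes, with 0.921 to IFIT1 and 0.886 to OASL. The 8 points share 4 culture times and the arrays' scaling, so these values describe likeness over time only.

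Among the 2327 genes whose time means spanned at least 1 log2 unit, DDX60 was closest to the mean profile of the 5 genes, with r of 0.995 over 8 arrays. DDX60, a helicase-like antiviral factor, read 8.92 and 8.44 at 24h, 5.87 and 5.29 at 7 days, and 6.97 and 6.63 at 30 days. The next were CMPK2, a nucleotide kinase, at 0.985, the locus LOC100156073 at 0.984 and PLAC8 at 0.982. DHX58 followed at 0.981, USP18 and MX2 at 0.980, LOC100525590 and PML at 0.977 and SGMS1 at 0.976. Taken gene by gene, with names chosen after their values were seen, CMPK2 was nearest to RSAD2 at 0.992, IRF9 to IFIT1 at 0.990 and EIF2AK2 to IFI44 at 0.994. Nearest to OASL was ERN1, the stress sensor of the endoplasmic reticulum, at 0.998, followed by CELA1 and KDM6B at 0.996 and IDO1, a tryptophan-degrading enzyme, at 0.995. DDX18 was nearest to HERC5 at 0.996. IDO1 had the same flat end as OASL, with 6.74 and 6.07 at 24h and readings from 3.17 to 3.59 on the later 6 arrays. Those later readings lie around the arrays' 25th percentiles of 3.37 to 3.43, so whether they are above background is not known.

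In the pig gene order of RefSeq assembly Sscrofa11.1, used for order alone, RSAD2 lies next to CMPK2 and IFIT1 next to IFIT3. CMPK2 read 7.96 and 7.87 at 24h, 5.32 and 5.42 at 7 days, 6.24 and 6.09 at 15 days, and 6.84 and 6.29 at 30 days. Like RSAD2, it was lowest at 7 days and higher on every later array, at 1.19 ± 0.17 (SE) above 7 days at 30 days (limma adjusted p = 6.31e-04). IFIT3, a partner of IFIT1 in RNA binding, fell by 2.54 ± 0.14 (SE) in the first week (limma adjusted p = 1.34e-06). Its return was slower than that of IFIT1: 0.18 ± 0.14 (SE) at 15 days, which limma did not call (adjusted p = 0.500), and 0.86 ± 0.14 (SE) at 30 days (adjusted p = 0.00121). IFI44L next to IFI44, IFIT2 near IFIT1 and HERC6 next to HERC5 were not measured, and HERC5 had no measured neighbour within 2 genes. The measured neighbours of IFI44 and OASL were not of this kind. ADGRL4 beside IFI44 was 1.86 ± 0.27 (SE) higher at 7 days than at 24h (limma adjusted p = 5.54e-04), and C14H12orf43 beside OASL differed by 0.05 ± 0.12 (SE, adjusted p = 0.839). PTGFR near IFI44 differed by -0.20 ± 0.12 (SE, limma adjusted p = 0.252), LOC100517973 near OASL by 0.54 ± 0.19 (SE, adjusted p = 0.054), and SLC16A12 near IFIT1 was 1.46 ± 0.22 (SE) higher (adjusted p = 7.25e-04).

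Of 76 other interferon-induced effector genes listed, 34 were measured. From 24h to 7 days 27 of the 34 fell, and limma called 0 higher, with 1 higher at an unadjusted p under 0.05 and 1 called higher without the first 24h or the second 7-day array. The list's median change was -1.16 against -0.0064 over all genes, and the 27 calls ranged from 22 to 29 when single arrays were left out. The largest drops were those of PLAC8 at -3.12 ± 0.26 (SE), the ISG15-removing protease USP18 at -3.12 ± 0.17 (SE) and DDX60 at -3.10 ± 0.22 (SE), with limma adjusted p of 1.80e-05, 1.49e-06 and 6.12e-06. The dynamin-like GTPases MX1 and MX2, which trap viral nucleocapsids, fell by 2.80 ± 0.18 (SE) and 3.08 ± 0.18 (SE), with limma adjusted p of 4.11e-06 and 2.14e-06. Over all genes 15.4% were called lower in that week. The list was drawn up with earlier results of these arrays known, and its counts are not independent evidence of a direction.

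From 7 to 15 days 11 of the 34 effectors rose, beside 6.58% of all genes. limma called 0 lower, with 1 lower at an unadjusted p under 0.05. The count of risers was 6 without the second 7-day array (with 1 called lower), 6 without the first 15-day array and 7 without the second 15-day array. From 7 to 30 days 13 of 34 rose, beside 11.8% of all genes, and the median was 0.34 against -0.0081 over all genes. The gene called lower was LGALS9, a galectin, at -0.66 ± 0.14 (SE, limma adjusted p = 0.00781), a call lost without the second 7-day array (adjusted p = 0.053) or the second 30-day array (adjusted p = 0.0566). At 30 days against 24h 21 of 34 were still lower, beside 21.1% of all genes. Called higher were 2, TNFSF10 and PARP10, beside 20.2%. PARP10, at 0.37 (limma adjusted p = 0.0305), lost its call without the second 24h array (adjusted p = 0.188), either 15-day array (adjusted p = 0.0557) or the first 30-day array (adjusted p = 0.159).

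The effectors showed both shapes of the 5 genes. OAS2, a synthetase of the RNA-degrading 2-5A pathway, read 10.12 and 10.03 at 24h, 7.26 and 7.28 at 7 days, 8.59 and 8.53 at 15 days, and 9.13 and 8.86 at 30 days. Its 1.72 ± 0.12 (SE) rise from 7 to 30 days (limma adjusted p = 7.31e-06) resembles the course of IFIT1. OAS1, of the same family, read 7.34 and 6.41 at 24h, 4.67 and 4.59 at 7 days, and 4.77 and 4.59 at 30 days. It stayed down in the manner of OASL: OAS1 differed by 0.05 ± 0.25 (SE) between 7 and 30 days (limma adjusted p = 0.927). IFITM3, a membrane protein that blocks viral fusion, fell by 2.40 ± 0.25 (SE, limma adjusted p = 7.44e-05) and was 0.37 ± 0.25 (SE) above 7 days at 30 days, which was not called (adjusted p = 0.361). TNFSF10, the death ligand TRAIL, overshot. It read 7.83 and 7.15 at 24h, 6.34 and 6.02 at 7 days, 9.42 and 9.63 at 15 days, and 10.23 on both arrays at 30 days, 2.74 ± 0.21 (SE) above 24h (limma adjusted p = 4.03e-06).

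**Figure D3:**
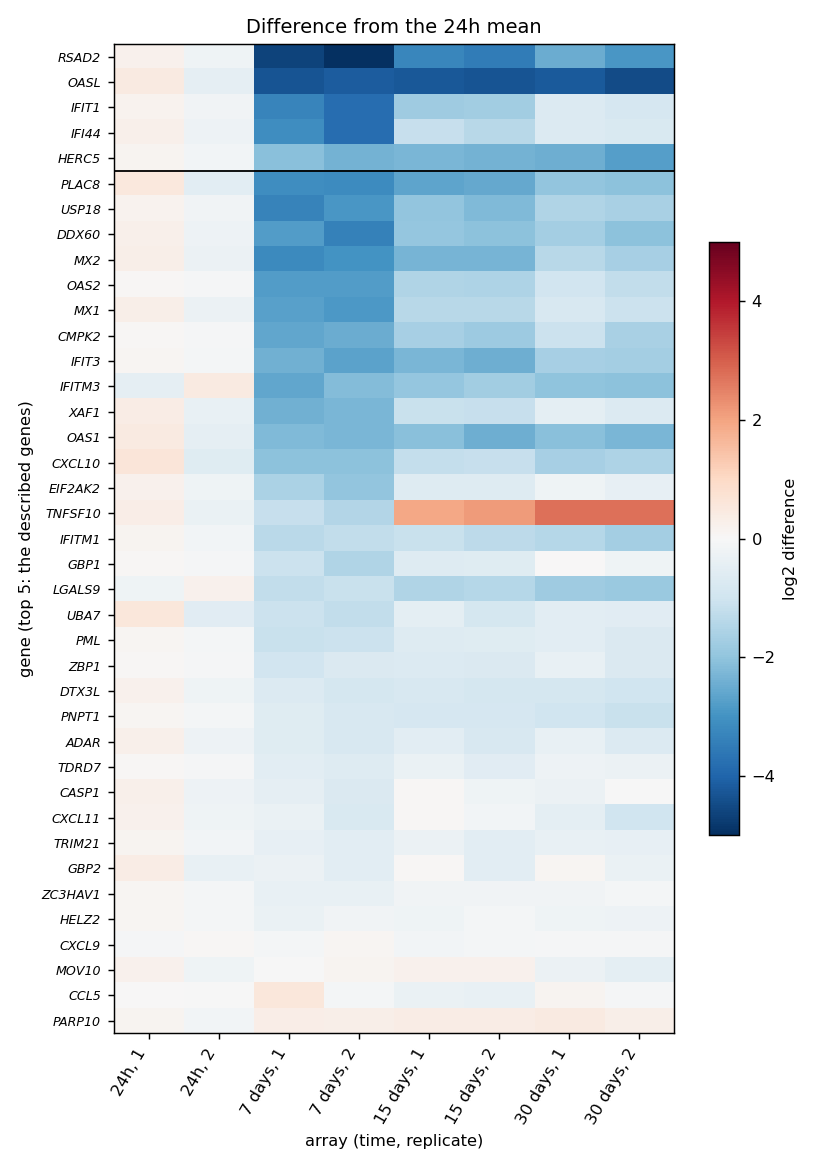
Log2 difference of each array from the gene's own 24h mean, as colour, for the 5 genes (top) and the 34 measured effectors (below the line), with arrays by time and replicate along the x axis. Most genes are blue, below 24h, at 7 days, and TNFSF10 turns red at 15 and 30 days, 2.74 above 24h at the end.

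Few interferon genes were measured. Of 33 ligands listed, 5 had a named probe set. IFNE, an interferon of reproductive tract epithelium, read 5.52 and 5.71 at 24h, 4.87 and 5.05 at 7 days, 5.21 and 5.04 at 15 days, and 5.50 and 5.21 at 30 days. It fell by 0.65 ± 0.14 (SE) in the first week (limma adjusted p = 0.0054) and was 0.39 ± 0.14 (SE) above 7 days at 30 days, which was not called (adjusted p = 0.0698). IFNK, an interferon of keratinocytes, read 4.31 and 4.38 at 24h, 2.97 and 3.39 at 7 days, and 3.20 and 3.50 at 30 days. It fell by 1.17 ± 0.16 (SE, limma adjusted p = 3.32e-04) in the first week. Its 24h readings lay below those arrays' medians of 4.75 and 4.77. Its 7-day readings lay below those arrays' 25th percentiles of 3.37 and 3.43, so whether they are above background is not known. IFNB1 read 2.69 to 2.92 and IFNG 2.73 to 2.87 over the 8 arrays, both below each array's 25th percentile and named after their values were seen. The ligands called lower in the first week were thus IFNE and IFNK, 2 of 5, beside 15.4% of all genes. From 7 to 15 and from 7 to 30 days limma called 0 of 5 either way (at an unadjusted p under 0.05, 0 and 1 higher). Leaving out the first 30-day array, centring on array medians or a further quantile normalization each gave 1 ligand higher from 7 to 30 days, and removing the dimmest 25% of genes left 1 lower in the first week.

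Of 13 genes for receptors and JAK-STAT signalling 8 were measured, and 3 fell and 0 rose from 24h to 7 days by limma, with 1 higher at an unadjusted p under 0.05. Centring each array on its median gave 6 lower. Over all genes 15.4% were called lower and 18.3% higher in the main fit of that week. IRF9, the DNA-binding part of the interferon-activated STAT complex, had a course like that of IFIT1. It read 8.49 and 8.40 at 24h, 7.39 and 7.33 at 7 days, 7.90 and 8.01 at 15 days, and 8.36 and 8.14 at 30 days. IRF9 fell by 1.09 ± 0.12 (SE, limma adjusted p = 8.69e-05) and was 0.89 ± 0.12 (SE) above 7 days at 30 days (adjusted p = 3.98e-04). STAT2 was 0.91 ± 0.14 (SE) higher at 30 days than at 7 days (limma adjusted p = 8.80e-04). IFNLR1, the receptor chain particular to type III interferon, went the other way. It read 5.97 and 5.79 at 24h, 4.83 and 4.56 at 7 days, 3.90 and 3.59 at 15 days, and 3.86 and 3.65 at 30 days, 2.12 ± 0.15 (SE) lower at the end than at the start (limma adjusted p = 2.94e-06). From 7 to 30 days 4 of the 8 were higher and 1, IFNLR1, lower, beside 11.8% and 14.1% of all genes.

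Of 26 nucleic acid sensors and adaptors 17 were measured. In the first week 7 fell and 2 rose, with 4 lower when the second 7-day array was left out. Over all genes 15.4% were called lower and 18.3% higher in that week. From 7 to 30 days 4 rose and 3 fell, beside 11.8% of all genes called higher and 14.1% lower. At 30 days against 24h 9 were lower and 4 higher, beside 21.1% and 20.2%. With 17 genes, nothing is read from counts near these shares. The 3 that fell from 7 to 30 days were IKBKE at -0.59 ± 0.14 (SE), TLR7 at -0.52 ± 0.15 (SE) and RIPK1 at -0.46 ± 0.12 (SE), with limma adjusted p of 0.0106, 0.0254 and 0.0194. That count was 1 without either 7-day array or after centring on array medians, and 0 without the second 30-day array. IFIH1, the sensor MDA5 for long double-stranded RNA, read 8.40 and 8.04 at 24h, 6.11 and 5.94 at 7 days, 6.96 and 6.80 at 15 days, and 7.64 and 7.47 at 30 days. It fell by 2.20 ± 0.15 (SE, limma adjusted p = 4.58e-06) and then rose by 1.53 ± 0.15 (SE) from 7 to 30 days (adjusted p = 4.93e-05). DHX58, the regulator LGP2 of the same sensors, fell by 2.61 ± 0.14 (SE, limma adjusted p = 1.52e-06) and returned by 0.79 ± 0.14 (SE) at 30 days (adjusted p = 0.00284). MB21D1, the DNA sensor cGAS, read 6.72 and 6.54 at 24h, 4.64 and 4.17 at 7 days, 5.11 and 4.73 at 15 days, and 4.43 and 4.38 at 30 days. Its 15-day arrays lay above the 7-day ones by 0.51 ± 0.18 (SE), which was not called with all arrays (limma adjusted p = 0.0952) but was with the replicate block (adjusted p = 0.0316) and without the first 7-day array (adjusted p = 0.0332). At 30 days it was back within the 7-day range. TLR3, an endosomal sensor of double-stranded RNA, read 7.76 and 8.07 at 24h, 7.80 and 7.46 at 7 days, and 8.55 and 8.56 at 30 days, a rise of 0.92 ± 0.15 (SE) from 7 days (limma adjusted p = 0.00157). NOD1, a sensor of bacterial peptidoglycan, differed by 0.03 ± 0.11 (SE) at 7 days (limma adjusted p = 0.884) and rose by 1.40 ± 0.11 (SE) from 7 to 30 days (adjusted p = 1.61e-05).

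**Figure D4:**
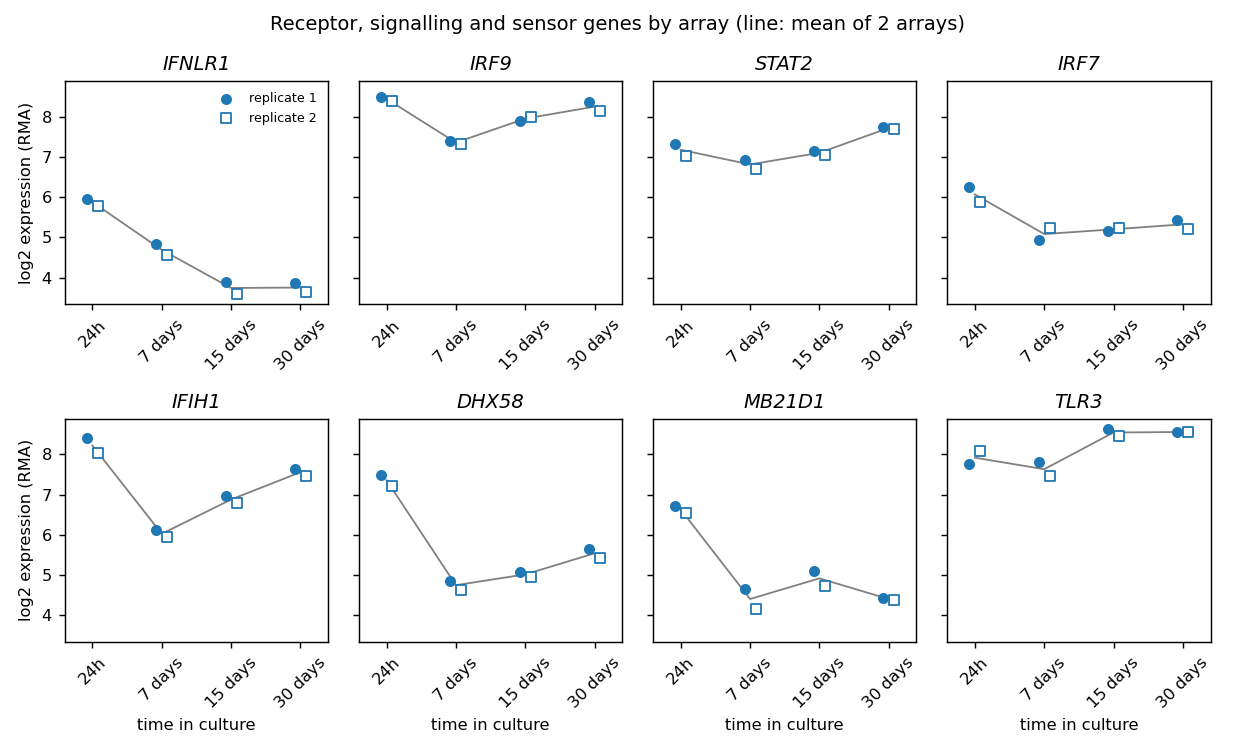
Log2 RMA intensity per array of 8 receptor, signalling and sensor genes by time in culture, with a symbol per replicate and lines through the means of 2 arrays. IRF9 and IFIH1 dip at 7 days and return, IFIH1 to 7.64 and 7.47, while IFNLR1 is lower at 7 days and again at 15 days, and reads 3.86 and 3.65 at 30 days.

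Among other groups around the pathway, changes in the first week were mixed. Over all genes 15.4% were called lower and 18.3% higher in that week, and nothing is read from counts near those shares. Of 8 measured interferon regulatory factors and partners 2 fell and 2 rose, and leaving out any array but the first 24h array gave 1 riser, and leaving out the second 7-day array 1 faller. IRF7, which amplifies interferon production, fell by 0.98 ± 0.16 (SE, limma adjusted p = 0.00109) and was 0.24 ± 0.16 (SE) above 7 days at 30 days, not called (adjusted p = 0.348). Of 11 measured inhibitors of interferon signalling 4 rose, among them the ligase RNF125 at 1.49 ± 0.17 (SE, limma adjusted p = 1.40e-04), and 1 fell. Without the first 7-day array 1 rose, and 2 did without the second 24h, second 7-day or either 15-day array or after centring on array medians. Without the second 24h or the second 7-day array 0 fell. Of 15 measured class I antigen presentation genes 4 fell and 2 rose, with 7 lower and 1 higher after centring on array medians, and 1 higher without the second 24h or the first 7-day array. PSMB9, among the 4 that fell, changed by -0.56 ± 0.19 (SE, limma adjusted p = 0.0493). It was not called with the mean of its probe sets (adjusted p = 0.255) or with only the 2 groups compared (adjusted p = 0.108). Its change was -0.23 without the first 24h array and -0.89 without the second. The immunoproteasome subunit PSMB8 fell by 0.89 ± 0.11 (SE, limma adjusted p = 2.36e-04) and stayed down, at -1.01 ± 0.11 (SE) at 30 days against 24h (adjusted p = 5.77e-05).

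**Figure D5:**
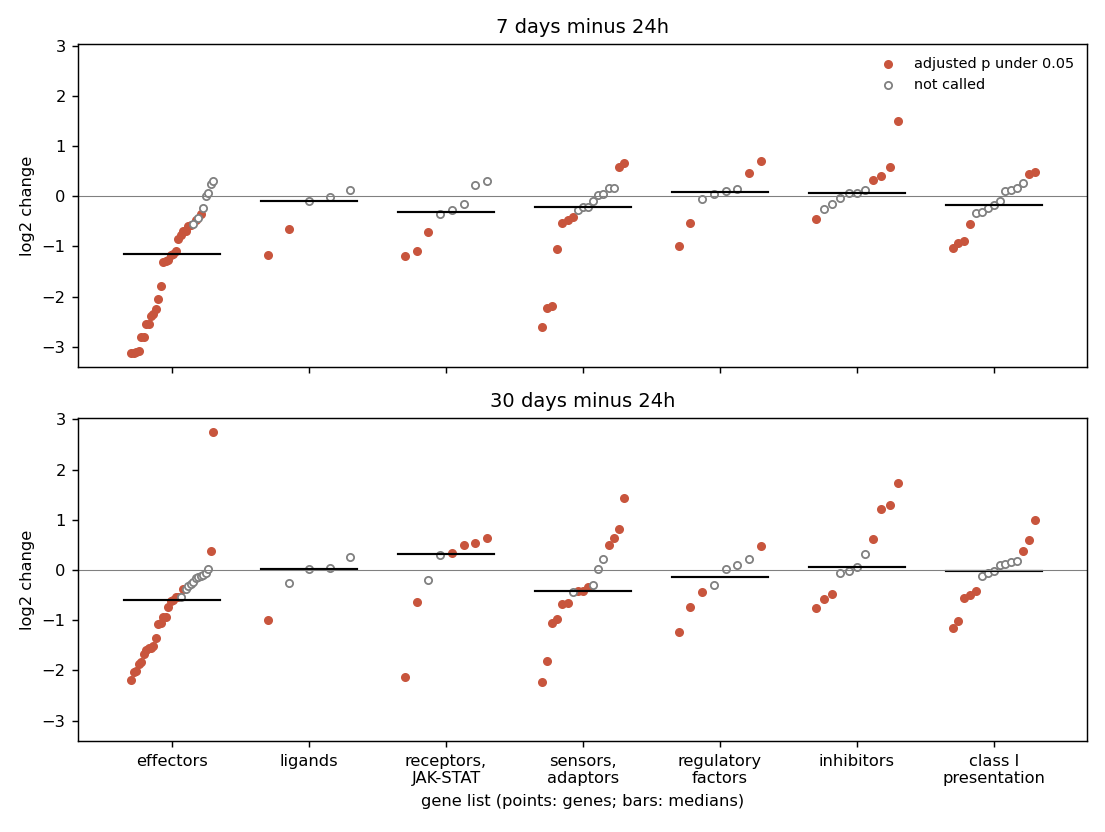
Log2 change at 7 days (top) and 30 days (bottom) against 24h for every measured gene of 7 lists, a point per gene, filled where limma's adjusted p is under 0.05, with a bar at the list's median. The effectors have medians of -1.16 and -0.60, whereas the regulatory factors and inhibitors centre near 0.

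Markers of cell types moved over the same times. The mean level of 10 epithelial markers was 9.71 and 9.97 at 24h, 8.26 and 8.37 at 7 days, 7.30 and 7.49 at 15 days, and 6.29 and 6.24 at 30 days. The mean went down at each step and did not return. In the first week 6 of the 10 markers were called lower, beside 15.4% of all genes. KRT8 was an exception, at 0.29 ± 0.14 (SE) at 30 days against 24h (limma adjusted p = 0.148). The mean of 13 fibroblast markers went up at each step. It was 4.41 and 4.35 at 24h, 5.85 and 6.00 at 7 days, and 7.17 and 7.07 at 30 days. In the first week 7 of the 13 were called higher, beside 18.3% of all genes. COL1A2, a chain of fibrillar collagen, read 4.93 and 5.16 at 24h and 10.94 and 11.03 at 30 days. COL1A1, another such chain, already read 8.10 and 7.93 at 24h, and 12.16 and 12.14 at 30 days. From 7 to 15 days 6 of the 13 were called higher and 1 lower, beside 6.58% and 6.72% of all genes. From 7 to 30 days 7 were higher and 1 lower, beside 11.8% and 14.1%. The lower gene was DCN both times, at -0.82 ± 0.17 (SE, limma adjusted p = 0.0109) and -0.66 ± 0.17 (SE, adjusted p = 0.0158). The part of this change of markers in the values of the 5 genes was not tested.

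The mean of 22 leukocyte markers was 4.28 and 4.78 at 24h, 4.55 and 4.50 at 7 days, 4.16 and 4.19 at 15 days, and 4.13 on both arrays at 30 days. At 24h it was higher in the second array. By limma 0 of the 22 markers were called between 24h and 7 days (1 lower and 2 higher at an unadjusted p under 0.05), with 5 lower without the first 24h array and 4 higher without the second. Both from 7 to 15 and from 7 to 30 days, some leukocyte markers were called lower and 0 higher. At 15 against 7 days 2 of 22 were lower, beside 6.72% of all genes. At 30 against 7 days 6 of 22 were lower, beside 14.1% of all genes. At an unadjusted p under 0.05, 0 were higher in either. For 30 days against 24h, the share of all genes called lower was 21.1%. FCER1G, a subunit of Fc receptors, read 6.18 and 5.51 at 7 days and 3.81 and 3.85 at 30 days, and LCP1, an actin-bundling protein of blood cells, 7.10 and 6.82 and then 5.47 and 5.29. The 2 calls became 6 without either 24h array, 1 without the first 7-day or either 30-day array, and 0 without the second 7-day or either 15-day array. The 6 calls became 3 without either 15-day array, 1 without the first 7-day or the second 30-day array, and 0 without the second 7-day or the first 30-day array. At 30 days against 24h 8 of 22 were lower, with 3 without the second 24h array, 5 without either 15-day array, and 2 and 1 without the first and the second 30-day array. PTPRC, the pan-leukocyte marker CD45, read 3.84 and 4.97 at 24h and 4.55 and 3.97 at 7 days, ranges that overlap. CD3E of T cells read 3.95 to 4.33 and CD14 of monocytes 4.17 to 4.66 over the 8 arrays, below the array medians. CD79A of B cells read 9.87 to 10.23 and was the highest of the 22 markers on every array, so it lifts each mean given above. Whether its reading reflects B cells was not tested. Of 6 measured dendritic cell markers 1 was lower and 1 higher at 7 days; the higher call was lost without any 1 of the 8 arrays other than the second 7-day array, and the lower one without the first 24h array. The part of these cells in the results was not tested.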

How the data were processed

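The deposited log2 values were made by the authors with RMA, per the submitters' processing notes; other settings were not stated. The matrix held 27558 probe sets on 8 arrays. The platform table gave 1 symbol for 11968; 373 with several symbols, 6 with conflicting ones and 15211 unnamed ones were left out. A gene took its probe set of highest mean over the 8 arrays (966 of 10901 genes had more than 1). No further normalization was applied.

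limma 3.58.1 (R 4.3.3) fitted a mean per time over the 8 arrays with lmFit and eBayes, leaving 4 residual degrees of freedom, and p-values were Benjamini-Hochberg adjusted over 10901 genes. Changes are later minus earlier. The script was tested on simulated data. With 2 arrays per time, the number of arrays limits the precision: the median SE of a change from 24h to 7 days was 0.13.

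The 5 genes and the lists were chosen with earlier results of these data known. Genes were named by rule: up to 3 called genes of each list with the largest increase and decrease per comparison, measured neighbours within 2 genes, the 10 genes most like the mean profile, and defining markers; others are said to be chosen later. A planned promoter search was not run, since promoter sequences were not used here. Alternatives covered normalization, dim probes, probe set choice, variance model, arrays fitted, a replicate block, a fold threshold and each array left out.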

Additional observations from a re-analysis of the deposited data

How the results depend on the processing

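With 2 arrays per time, the median changes of the 5 genes kept their direction under every alternative run. Leaving out each array in turn, they were -3.83 to -3.31 at 7 days against 24h, 1.26 to 1.64 at 15 against 7 days, 1.92 to 2.35 at 30 against 7 days, and -2.77 to -2.44 at 30 days against 24h. The near-0 changes of OASL turned sign: -0.12 to 0.034 at 15 days and -0.24 to 0.047 at 30 days, both against 7 days, and HERC5 ran from -0.26 to 0.015 at 15 days. In the same order of comparisons, genes called over the whole array were 3669, 1450, 2832 and 4494, and 3005 to 3556, 633 to 1583, 1886 to 2971 and 3778 to 4575 without single arrays. The count at 15 against 7 days was 899 without the second 7-day array, 633 without the first 15-day array and 668 without the second, and that at 30 against 7 days was 1886 without the second 30-day array. The effectors called ran from 22 to 29, 6 to 14, 11 to 15 and 16 to 23. Requiring a 2-fold change in addition gave 1078, 395, 827 and 1822 genes, and 7 effectors at 15 against 7 days and 13 at 30 days against 24h. At 7 days against 24h FCER1G, a leukocyte marker, read 0.16 with all arrays, -0.97 without the first 24h array and 1.28 without the second, and NKG7 0.04, -0.68 and 0.76; the cause was not tested. Same-numbered arrays deviated together only weakly, with correlations of 0.0080 to 0.268. Whether the replicate numbers pair the arrays is not given, and these values do not settle it. With the replicate number as a block 3804, 1532, 2967 and 4613 genes were called.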
